A study of Mus musculus with 7 samples.

Results

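Genes of the developing lens and of pigment cells were examined in whole mouse embryos at E11.5. The members were 10 genes, taken by symbol: Cryaa, Cryab, Cryba1, Foxe3 and Pitx3 for the lens, and Pmel, Dct, Tyr, Tyrp1 and Mitf for pigment cells. All 10 had a row among the 25461 genes of the deposited FPKM table (reads per gene scaled to transcript length and to depth). The embryos were of the B6C3F1 strain, 3 SLMAP3 knockouts (KO: KOAC8-6, KOAC10-5 and KOAC10-8) and 4 wild types (WT: KOAC8-1, KOAC10-7, KOAC9-1 and KOAC10-2). In the KO mice a loxP-flanked exon 3 of Slmap had been deleted with CMV-Cre, a Cre active in the early embryo, and the Cre was then bred out. The other SLMAP isoforms are still made in these mice. The embryos were sequenced whole apart from the tail, which was taken for genotyping, with 1 library per embryo and no pooling. Whether embryos that share the KOAC8 or KOAC10 prefix came from a shared litter is not given in the sources used here, and KOAC9 holds only 1 embryo.

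For Slmap itself, measured over all its isoforms, KO embryos had 19.6, 16.0 and 16.6 FPKM against 31.2, 23.9, 29.1 and 22.8 FPKM of the WT embryos, so that the groups did not overlap. The FPKM of all genes summed to 770063 to 861448 per embryo. The fetal liver and yolk sac gene Afp was below 10 FPKM in 3 embryos, the KO embryo KOAC10-5 and the WT embryos KOAC10-7 and KOAC10-2, and at 255 to 376 FPKM in the other 4. Over all 16095 genes tested (mean of at least 1 FPKM), the median log2 fold change of KO against WT was 0.01, and 53.1% of the genes were higher in KO embryos.

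The lens arises from surface ectoderm that thickens into a placode, folds inwards and closes into a vesicle, whose rear cells elongate into fibres and fill with crystallins, the structural proteins of the lens. The front cells stay a dividing epithelium, which depends on the forkhead factor FOXE3, and the homeodomain factor PITX3 is needed for the vesicle to develop. MAF proteins switch on crystallin genes in the fibres. Pigment is made in the retinal pigment epithelium (RPE), which arises from the optic cup, and in melanoblasts, which migrate out of the neural crest. In both, the transcription factor MITF binds E-box sequences near the genes of melanin synthesis. In an RNA sample of a whole embryo, fewer cells of a type and less RNA per cell cannot be told apart, and the eye supplies only a small share of the RNA.

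Promoter sequences were available for 8 of the 10 members, all but Pmel and Cryab, as 10 windows that reach from 250 bases before to 50 bases after a RefSeq start on GRCm38.p6. They are shown because the members are usually grouped by the factors that bind these regions. The letters CATGTG, or CACATG on the other strand, are an E-box of the type MITF binds. They occurred in the windows of 3 of the 4 pigment members that had one, Tyr, Tyrp1 and Dct, in none of the 3 windows of Mitf and in none of the 4 lens windows, against 14.2% of 32851 promoters of the same length. The windows of Tyr (chr7:87493513-87493762, minus strand) and Dct (chr14:118052247-118052496, minus strand) are printed as the 250 bases before the RefSeq start, and that of Tyrp1 is cut to the motif (chr4:80834157-80834182, plus strand). Capitals mark the E-box in each:
Tyr promoter: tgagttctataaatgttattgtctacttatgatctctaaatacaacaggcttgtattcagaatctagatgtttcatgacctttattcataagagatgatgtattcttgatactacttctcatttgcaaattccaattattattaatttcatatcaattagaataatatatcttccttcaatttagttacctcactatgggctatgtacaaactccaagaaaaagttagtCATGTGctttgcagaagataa
Dct promoter: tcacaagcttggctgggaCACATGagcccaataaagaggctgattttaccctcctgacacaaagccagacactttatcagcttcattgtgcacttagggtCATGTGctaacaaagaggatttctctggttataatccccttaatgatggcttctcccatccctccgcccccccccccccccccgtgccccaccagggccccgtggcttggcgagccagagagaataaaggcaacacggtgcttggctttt
Tyrp1 motif: gggagggagtCATGTGctgcctagta
The motif began 21 bases before the RefSeq start in Tyr, 46 bases before it in Tyrp1, and 232 and 150 bases before it in Dct. In GENCODE M21 the Tyrp1 gene starts further out, at chr4:80834123, so its site lies within the annotated gene. In Tyr, Tyrp1 and the nearer site of Dct the E-box was followed by ct and preceded by gt. The letters CACGTG, a palindromic E-box, occurred in none of the members' windows and in 7.15% of all promoters.

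The letters TGCTGA, or TCAGCA on the other strand, are the core of the site that MAF proteins bind. They occurred in the windows of 2 of the 4 lens members that had one, Cryba1 and Cryaa, and in 2 of the 3 windows of Mitf, against 19.5% of all promoters. The Cryba1 promoter lies at chr11:77725294-77725543 (minus strand) and the Cryaa site at chr17:31677813-31677838 (plus strand), with the motif in capitals:
Cryba1 promoter: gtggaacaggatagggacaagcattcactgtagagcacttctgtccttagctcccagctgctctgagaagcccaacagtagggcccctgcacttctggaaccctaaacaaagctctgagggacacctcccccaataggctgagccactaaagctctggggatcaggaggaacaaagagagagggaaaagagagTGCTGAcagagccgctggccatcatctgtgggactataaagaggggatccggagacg
Cryaa motif: gcattccagcTGCTGAcggtgcagcc
The motif began 57 bases before the RefSeq start in Cryba1 and 108 bases before it in Cryaa. In GENCODE M21 the Cryaa gene starts further out, at chr17:31677807, so its site lies within the annotated gene. The motif matches describe the letters only, and binding was not measured in these embryos.

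Of the 8 members with a mean of at least 1 FPKM, none differed between KO and WT embryos after adjustment over all genes (limma with Benjamini-Hochberg adjustment, 0 of 8), and 1, Pitx3, had an unadjusted p under 0.05. Over all genes tested, 0.0373% passed at the adjusted threshold and 11.5% at the unadjusted one, so 1 of 8 is near the background. All 4 tested lens members had lower means in KO embryos (median log2 fold change -0.77), and all 4 tested pigment members had higher means (median 0.10). Foxe3 and Tyrp1, whose means were below 1 FPKM, did not enter that test. The KO values of both lay above all WT values, as they did in 4.68% of the 25461 genes, and those of Pitx3 lay below all WT values, as they did in 5.43%.

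**Figure D1:**
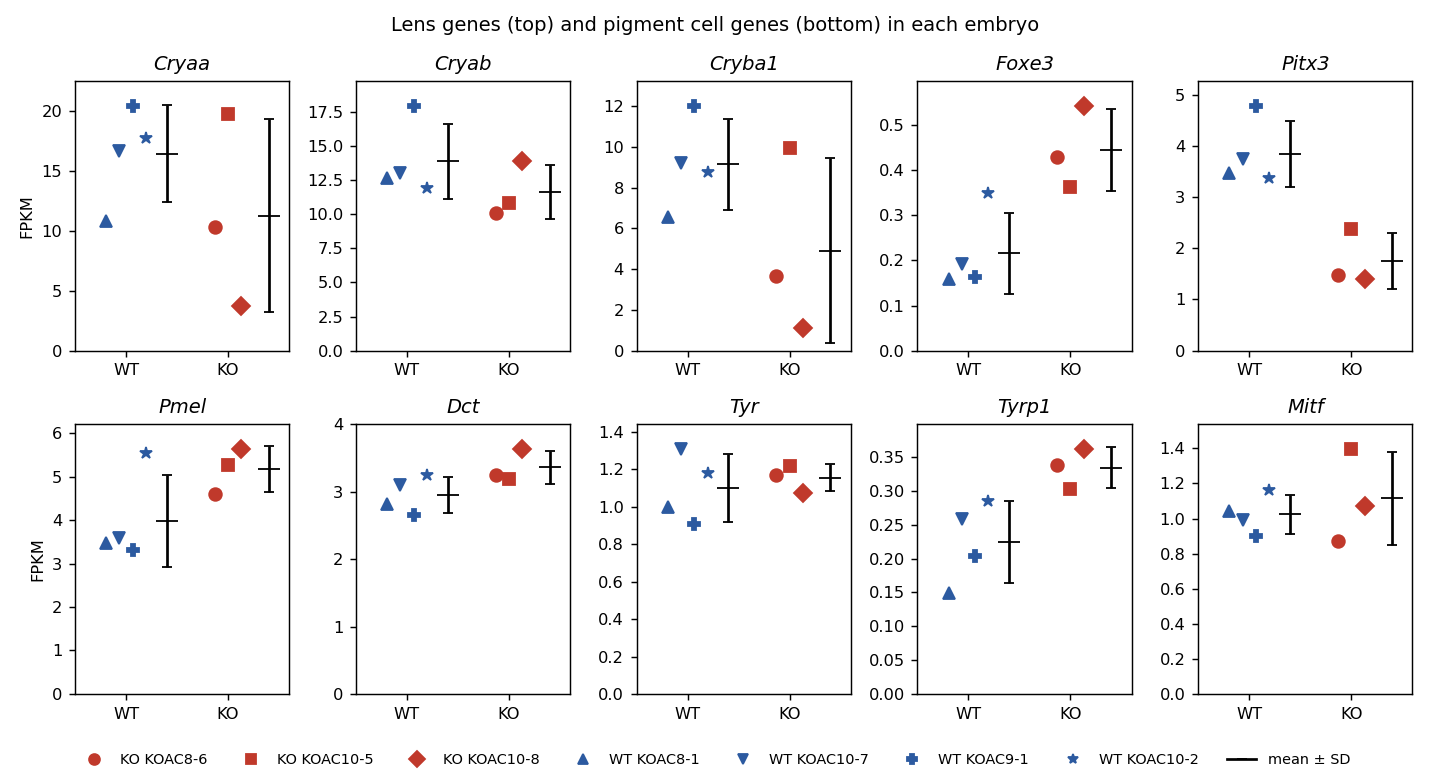
FPKM of the 10 members in each embryo, KO and WT side by side, with 1 point per embryo and the mean ± SD of each group, and the axes start at 0 and differ between panels. Pitx3 is lower in all 3 KO embryos, Foxe3 and Tyrp1 are higher in them, and the lens crystallins Cryaa and Cryba1 are spread widely among the KO embryos.

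Pitx3 (ENSMUSG00000025229, chr19:46135685-46148326, minus strand, GRCm38) was at 1.47, 2.38 and 1.40 FPKM in KO embryos, against 3.47, 3.74, 4.79 and 3.37 FPKM in WT embryos. The mean was 1.75 ± 0.548 FPKM (SD, n = 3) in KO embryos, against 3.84 ± 0.649 FPKM (SD, n = 4) in WT, a ratio of 0.455. The KO embryos lay below all WT embryos, and KOAC10-5 came nearest to them. The log2 fold change was -0.83 (SE 0.16, 95% confidence interval -1.19 to -0.46), with an adjusted p of 0.274 in limma. An exact permutation test over the 35 splits of the embryos gave a two-sided p of 0.0286, the smallest that 3 against 4 allows. By p, Pitx3 stood at rank 54 of the 16095 genes tested. The difference on the log2 scale was -0.68 within KOAC10 (KOAC10-5 and KOAC10-8 against KOAC10-7 and KOAC10-2). It was -0.85 within KOAC8, where KOAC8-6 was the only KO and KOAC8-1 the only WT embryo. Neither difference was tested.

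PITX3 is also made in developing skeletal muscle and in midbrain dopaminergic neurons, and markers of both were followed beside it. Of 10 skeletal muscle markers 8 were tested, and all 8 were lower in KO embryos (median log2 fold change -0.92), 6 of them at an unadjusted p under 0.05, against 11.5% of all genes tested, and none after adjustment. They were Myog and Myod1, factors of muscle differentiation, Acta1 (skeletal actin), Myh3 (embryonic myosin), Mylpf (a fast myosin light chain) and Tnnt3 (fast troponin T). Myog had 17.0, 18.3 and 8.24 FPKM in KO and 27.6, 29.9, 33.8 and 24.2 FPKM in WT embryos, with a log2 fold change of -1.01 (SE 0.26, adjusted p = 0.293, limma). The summed FPKM of the 10 markers ran from 59.9 to 118 in KO and from 172 to 293 in WT embryos, which did not overlap. Taken singly, 6 of the 10 had all KO values below all WT values, against 5.43% of all genes in the table. The other 4 overlapped. Of 7 dopaminergic genes tested, 1 was higher and 1 lower at an unadjusted p under 0.05, against 11.5% of all genes tested. None passed after adjustment. Foxa2, a floor plate factor, was higher (log2 fold change 0.30, adjusted p = 0.403, limma), with KO values above all WT values, as in 4.68% of all genes. Ddc, which makes dopamine, was lower (-0.15, adjusted p = 0.424, limma), with KO values below all WT values, as in 5.43% of all genes. Nr4a2 and Lmx1b, factors of these neurons, had log2 fold changes of 0.22 and 0.12. Taken singly, 6 of the 8 listed dopaminergic genes overlapped between the groups. The summed FPKM of all 8 also overlapped, at 37.7 to 60.2 in KO and 41.4 to 57.3 in WT. Within that sum, Nr4a2 alone ran from 9.35 to 31.5 FPKM over the embryos. The part of muscle or neurons in the Pitx3 difference was not tested.

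Foxe3 (ENSMUSG00000044518, chr4:114925147-114926013, minus strand), the factor of the lens epithelium, was at 0.428, 0.363 and 0.542 FPKM in KO embryos, against 0.159, 0.191, 0.163 and 0.349 FPKM in WT embryos. The KO embryos were all higher, but the WT embryo KOAC10-2 lay just below the lowest of them. The mean was 0.444 ± 0.0908 FPKM (SD, n = 3) in KO embryos, against 0.216 ± 0.0901 FPKM (SD, n = 4) in WT, a ratio of 2.06. The difference was 0.25 on the log2(FPKM + 1) scale, and the exact permutation test gave p = 0.0571. With low genes kept in the fit, limma gave an adjusted p of 0.378. The authors' mean normalized count for Foxe3 was 10.6, which puts the estimated counts at 5.39 to 18.3 per embryo and the counting error alone at 30.7% of the mean.

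The values of the crystallin genes Cryba1, Cryaa and Cryab overlapped between the genotypes. Cryba1 (ENSMUSG00000000724, chr11:77718615-77725283, minus strand), a beta-crystallin of the fibres, was at 3.67, 9.95 and 1.11 FPKM in KO embryos, against 6.58, 9.22, 12.03 and 8.77 FPKM in WT embryos. The KO embryo KOAC10-8 was lowest and the WT embryo KOAC9-1 highest, 10.9-fold apart, while the KO embryo KOAC10-5 lay within the WT range. The mean was 4.91 ± 4.55 FPKM (SD, n = 3) in KO embryos, against 9.15 ± 2.24 FPKM (SD, n = 4) in WT. The log2 fold change was -1.07 (SE 0.51, 95% confidence interval -2.26 to 0.13, adjusted p = 0.475, limma), and the exact permutation test gave p = 0.171. Leaving out KOAC10-5 gave -1.67, and leaving out KOAC10-8 gave -0.48.

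Cryaa (ENSMUSG00000024041, chr17:31677807-31681733, plus strand), an alpha-crystallin of the lens, was at 10.3, 19.8 and 3.76 FPKM in KO embryos, against 10.845, 16.7, 20.5 and 17.8 FPKM in WT embryos. The order was much like that of Cryba1, with KOAC10-8 lowest and KOAC9-1 highest, and the groups overlapped. The mean was 11.3 ± 8.04 FPKM (SD, n = 3) in KO embryos, against 16.5 ± 4.06 FPKM (SD, n = 4) in WT, and the log2 fold change was -0.72 (SE 0.47, adjusted p = 0.581, limma). It was -1.21 without KOAC10-5 and -0.15 without KOAC10-8. An antisense gene, AC090881.2, overlaps 13.2% of the exonic bases of Cryaa, and reads of the pair cannot be told apart without strand. Within the KOAC10 embryos the log2 difference was -0.88, and between KOAC8-6 and KOAC8-1, the only KOAC8 embryos, it was -0.06.

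Cryab (ENSMUSG00000032060, chr9:50751325-50756636, plus strand), a small heat shock protein that the heart and muscle make as well as the lens, was at 10.1, 10.85 and 13.9 FPKM in KO embryos, against 12.6, 13.0, 18.0 and 11.9 FPKM in WT embryos. KOAC9-1 was again the highest embryo, but KOAC10-8, lowest for the other 2 crystallins, was the second highest here. This gave a log2 fold change of -0.23 (SE 0.16, adjusted p = 0.595, limma), which was -0.11 without KOAC9-1 and -0.36 without KOAC10-8. Its neighbour on the opposite strand, Hspb2, overlaps 17.0% of its exonic bases, and the libraries do not mark strand. Hspb2, a muscle small heat shock protein, was at 5.34 ± 0.360 FPKM (SD, n = 3) in KO embryos, against 7.62 ± 1.24 FPKM (SD, n = 4) in WT embryos, without overlap (log2 fold change -0.43, SE 0.12, adjusted p = 0.303, limma). Among 6 further small heat shock proteins, Hspb2 was the only 1 without overlap. KO values lay below all WT values in 5.43% of all genes in the table. Hspb2 was also the only 1 of the 6 under an unadjusted p of 0.05, against 11.5% of all genes tested. The list's median log2 fold change was -0.07, with Hspb1 at -0.14 and Hspb8 at 0.05. The part of reads from Hspb2 in the Cryab value was not tested.

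Other lens genes were followed as a list of 23, of which 20 were in the table and 10 were tested. Of the 10 tested, 1 passed before adjustment, near the 11.5% of all genes tested. This was Sox1, a factor that fibre cells and neural progenitors use, with a log2 fold change of 0.44 (SE 0.15, adjusted p = 0.360, limma). Crybb3, a beta-crystallin with the highest mean of the list, had a log2 fold change of -0.79 (SE 0.42) and did not pass. Over the 10, 7 were lower and 3 higher, from -0.81 to 0.44 with a median of -0.16.

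Across most of the crystallins the same embryos were lowest and highest, which was not a split by genotype. This set, 12 crystallins without Cryab, was put together after values had been seen, and Crybb2, Crygf and Crygs were not analysed here. KOAC10-8 was the lowest embryo for 9 of the 12 and KOAC9-1 the highest for 9 of the 12. By contrast, KOAC10-8 was the highest for Crygb, and KOAC10-7 was the lowest for Crygn. Agreement in the whole order was not measured. The same 2 embryos were at the ends for the 10 skeletal muscle markers, KOAC10-8 lowest for 9 and KOAC9-1 highest for 9. The share of all genes with these embryos at the ends was not computed. The summed FPKM of the 12 was 26.2, 57.4 and 13.0 in the KO embryos and 35.3, 48.1, 68.1 and 53.5 in the WT embryos. Against the WT mean of each gene, the median log2 ratio was -0.98 in KOAC8-6, 0.09 in KOAC10-5 and -2.07 in KOAC10-8, and -0.59, -0.08, 0.39 and 0.03 in the WT embryos KOAC8-1, KOAC10-7, KOAC9-1 and KOAC10-2. The groups overlapped, since KOAC10-5 lay above 3 of the 4 WT embryos in the sum. Cryga, Crygb, Crygc, Crygd and Cryge share between 19.7% and 48.3% of their 50-base stretches with other genes, so that reads may be split between copies, and their values are uncertain. Crygn shares 0 of its stretches, but its mean count was only 18.2. Those of Crygd, Crygb and Crygc were 5.71, 6.07 and 16.7.

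**Figure D2:**
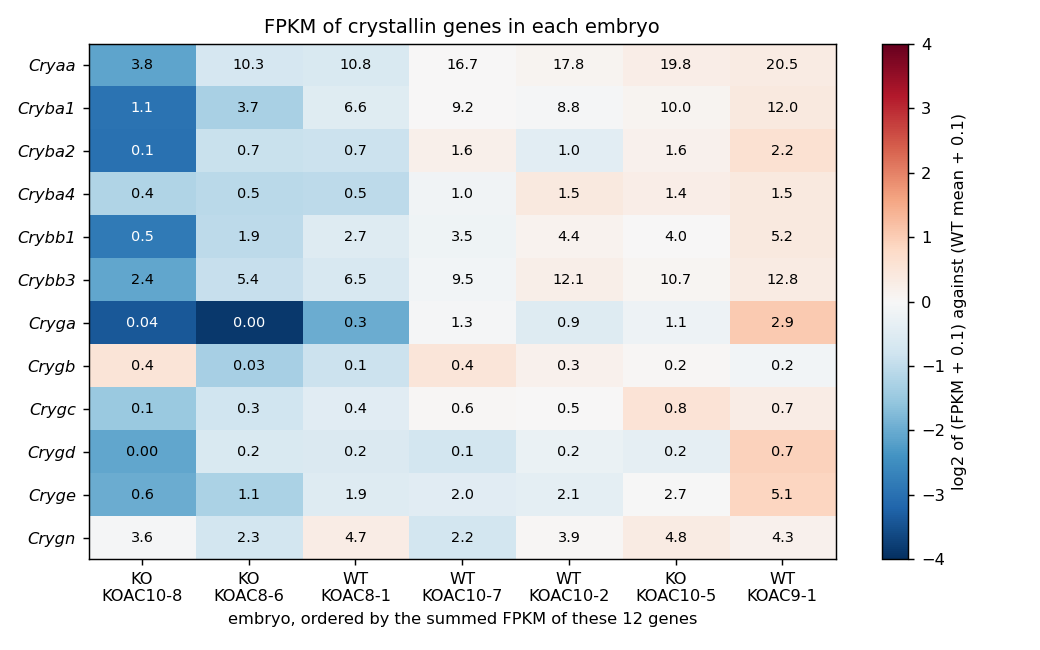
Heat map of 12 crystallins (rows) in the 7 embryos (columns, ordered by their summed FPKM), with the FPKM in each cell and the colour showing its log2 ratio to the WT mean after 0.1 was added to both. The KO embryo KOAC10-8 is low across most rows, whereas the KO embryo KOAC10-5 looks like the WT embryos.

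Pmel (ENSMUSG00000025359, chr10:128704195-128720238, plus strand), which forms the fibrils on which melanin is laid down, was at 4.60, 5.27 and 5.65 FPKM in KO embryos, against 3.47, 3.58, 3.31 and 5.55 FPKM in WT embryos. Of the WT embryos only KOAC10-2 reached the KO range. The mean was 5.17 ± 0.531 FPKM (SD, n = 3) in KO embryos, against 3.98 ± 1.06 FPKM (SD, n = 4) in WT, with a log2 fold change of 0.33 (SE 0.16, 95% confidence interval -0.04 to 0.70, adjusted p = 0.481, limma), and the exact permutation test gave p = 0.114. Of its exonic bases 4.58% are shared with Dgka and 1.48% with Cdk2, both on the opposite strand.

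Dct (ENSMUSG00000022129, chr14:118012790-118052244, minus strand), the dopachrome tautomerase of melanin synthesis, lies on the chromosome of Slmap, 91.5 Mb from it. It was at 3.25, 3.19 and 3.64 FPKM in KO embryos, against 2.82, 3.10, 2.66 and 3.24 FPKM in WT embryos. The KO embryos were among the higher ones, but KOAC10-2 lay between them. Its log2 fold change came to 0.14 (SE 0.08, adjusted p = 0.542, limma).

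Tyrp1 (ENSMUSG00000005994, chr4:80834123-80851719, plus strand), which acts after tyrosinase in the same pathway, was at 0.339, 0.302 and 0.362 FPKM in KO embryos, against 0.149, 0.259, 0.204 and 0.285 FPKM in WT embryos. All KO embryos were higher, by a narrow margin over KOAC10-2. The difference was 0.13 on the log2(FPKM + 1) scale and the exact permutation test gave p = 0.0571, while limma without the filter gave an adjusted p of 0.476. The mean count was 37.8, at which counting error alone is 16.3%.

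Tyr (ENSMUSG00000004651, chr7:87424771-87493512, minus strand) encodes tyrosinase, the rate-limiting enzyme of melanin synthesis. It was at 1.17, 1.22 and 1.08 FPKM in KO embryos, against 0.999, 1.31, 0.911 and 1.18 FPKM in WT embryos, whose range held all KO values. In limma the log2 fold change was 0.04 (SE 0.10, adjusted p = 0.900, limma). Mitf (ENSMUSG00000035158, chr6:97807052-98021349, plus strand), the factor upstream of these genes, was at 0.875, 1.40 and 1.07 FPKM in KO embryos, against 1.04, 0.989, 0.901 and 1.16 FPKM in WT embryos. KOAC8-6 was the lowest embryo and KOAC10-5 the highest, both KO. Between the groups the log2 fold change was 0.06 (SE 0.11, adjusted p = 0.863, limma), and its relatives Tfe3 and Tfeb had 0.04 and 0.03.

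**Figure D3:**
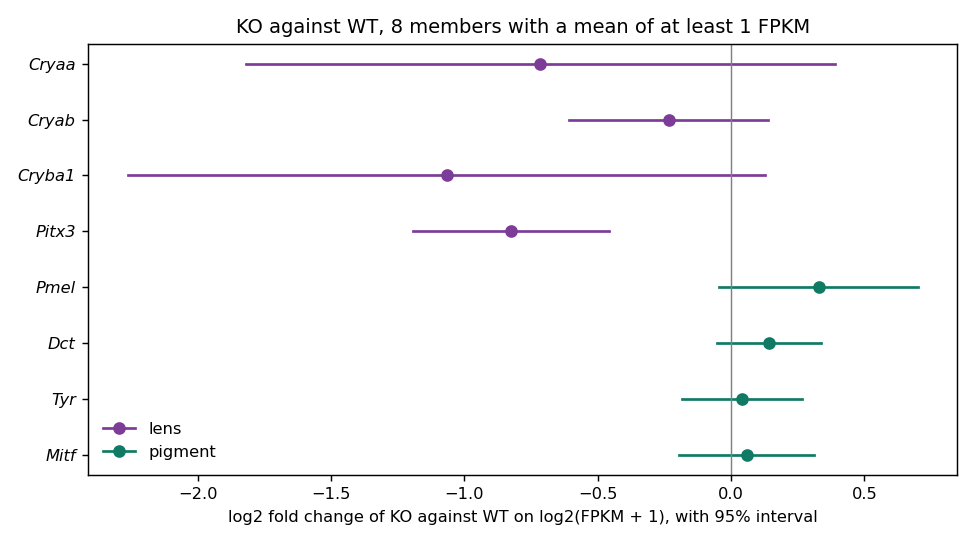
Log2 fold change of KO against WT on the log2(FPKM + 1) scale for the 8 members tested with limma (points), with 95% confidence intervals (lines). The interval of Pitx3 lies wholly below 0, and those of the other tested members include 0.

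Of 12 further pigment genes 4 were tested. Trpm1, a channel of melanocytes, was the only one of these 4 under an unadjusted p of 0.05, against 11.5% of all genes tested. It had 3.66 ± 0.865 FPKM (SD, n = 3) in KO embryos, against 2.16 ± 0.500 FPKM (SD, n = 4) in WT embryos, without overlap (log2 fold change 0.56, SE 0.17, adjusted p = 0.345, limma). Rab27a, which ties melanosomes to the cell cortex, had a log2 fold change of -0.22, and the melanosomal exchanger Slc24a5, named after its values were seen, had 0.02. The KO values lay above all WT values in 2 of the 12, Trpm1 and Mlph, the latter named after its values were seen, against 4.68% of all genes in the table. Among 7 melanoblast and neural crest genes, 1 passed before adjustment, against 11.5% of all genes tested. This was Pax3, a factor of the crest and dorsal neural tube, at 14.1 ± 1.43 FPKM (SD, n = 3) in KO embryos, against 10.99 ± 0.617 FPKM (SD, n = 4) in WT (log2 fold change 0.33, adjusted p = 0.286, limma). The others did not pass before adjustment, Ednrb, a receptor of melanoblasts, at 0.03 and Snai2, a crest factor, at -0.16, and the median of the 7 was 0.02.

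Genes of the optic cup, the tissue that lies against the lens and forms the RPE, had higher means in KO embryos for 8 of the 10 tested (median log2 fold change 0.18). Under an unadjusted p of 0.05 were 3 of the 10, against 11.5% of all genes tested. Pax6, a factor of lens, retina and brain, was at 30.6 ± 4.29 FPKM (SD, n = 3) in KO embryos, against 21.3 ± 1.80 FPKM (SD, n = 4) in WT (log2 fold change 0.50, SE 0.11, adjusted p = 0.274, limma), without overlap. Otx2, a factor of RPE and forebrain, was at 29.2 ± 4.82 FPKM (SD, n = 3) in KO embryos, against 20.7 ± 1.25 FPKM (SD, n = 4) in WT (0.46, SE 0.11, adjusted p = 0.286), also without overlap. KO values lay above all WT values in these 2 of the 12 listed, against 4.68% of all genes in the table. Vax1, of the optic stalk and ventral forebrain, had 0.31 (SE 0.12, adjusted p = 0.403), and none of the 10 passed after adjustment. Sfrp2 and Lhx2, with the highest means in the list, had -0.05 and -0.03. These genes are made in the brain as well, and the share of eye RNA in their values was not tested.

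Members were compared with each other across the 7 embryos on the log2(FPKM + 1) scale, in 45 pairs, each with exact permutation p-values over all pairings of the embryos, adjusted over the 45. Adjusted Pearson p-values were under 0.05 for 4 pairs and adjusted Spearman p-values for 1. Cryaa and Cryba1 had r = 0.98 (exact permutation p = 0.000397, adjusted p = 0.0179) and rho = 0.96 (exact permutation p = 0.00278, adjusted p = 0.0607). The correlation was 0.93 without the 2 embryos farthest from the median of Cryaa, KOAC10-8 and KOAC8-6, and 0.98 with both genotypes centred. In every pair the 2 embryos left out were those farthest from the median of its first gene, so they differ between pairs. Cryab followed neither Cryaa nor Cryba1, with r = 0.05 to Cryaa and 0.17 to Cryba1.

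Pmel and Dct had r = 0.86 (exact permutation p = 0.00238, adjusted p = 0.0290) and rho = 0.89 (exact permutation p = 0.0123, adjusted p = 0.0692). Their r was 0.65 without the 2 embryos farthest for Pmel, the WT embryos KOAC9-1 and KOAC8-1, and 0.75 with genotypes centred. The other 2 pairs under the adjusted threshold were Foxe3 with Dct and Foxe3 with Tyrp1. The values of Foxe3, Tyrp1 and Pitx3 did not overlap between the genotypes, so that a correlation over all embryos holds the genotype difference, and such pairs were not read as relations. With genotypes centred, r was 0.86 for Foxe3 and Dct and 0.78 for Foxe3 and Tyrp1, given as a description over the same 7 libraries, with few counts of Foxe3 behind it.

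By kind, all 10 pairs of pigment members had a positive r over the 7 embryos, with a median of 0.52. Of these 10, 7 were positive without the 2 farthest embryos of each pair and 9 with genotypes centred. Without the WT embryos KOAC9-1 and KOAC8-1, Pmel and Tyr turned to -0.80, Tyr and Tyrp1 to -0.90 and Tyrp1 and Mitf to -0.18. Among the 10 pairs of lens members 6 were positive, and of the 25 pairs of a lens with a pigment member 9 were positive and 16 negative, with a median of -0.36. Without the 2 farthest embryos of each pair, 7 of the 10 lens pairs and 13 of the 25 mixed pairs were positive. These counts mix pairs with different embryos left out.

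**Figure D4:**
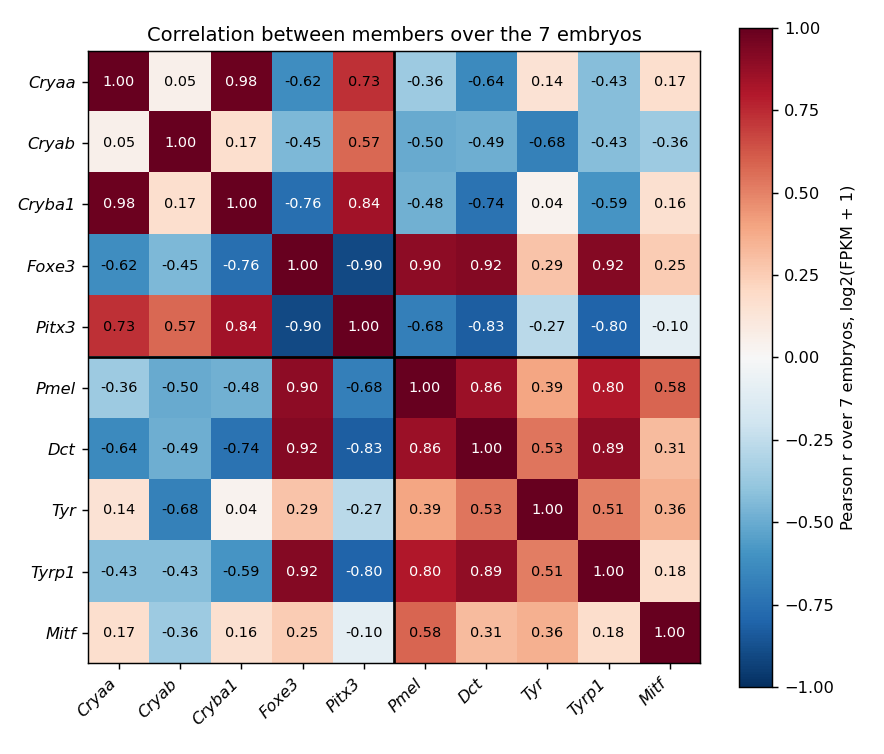
Pearson r of each pair of members over the 7 embryos on the log2(FPKM + 1) scale, with lens members first and pigment members after them. All 10 pairs of pigment members are positive over the 7 embryos, 3 of which turn negative without the WT embryos KOAC9-1 and KOAC8-1. Pairs with Foxe3, Tyrp1 or Pitx3 hold the genotype difference.

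**Figure D5:**
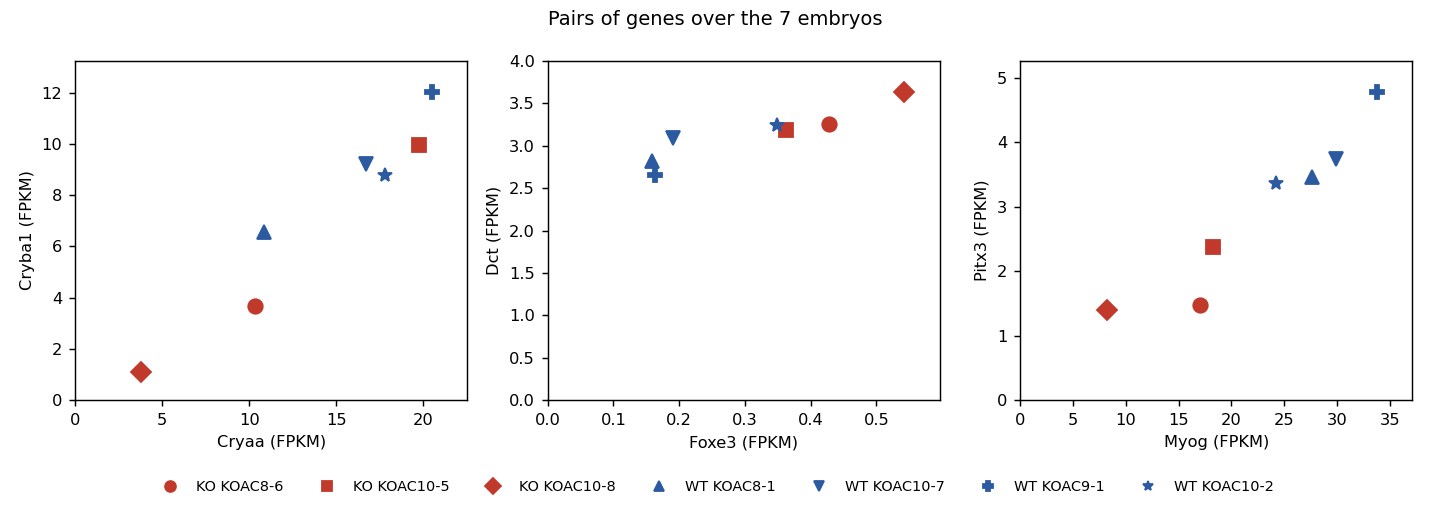
FPKM of Cryaa and Cryba1, of Foxe3 and Dct, and of the muscle gene Myog and Pitx3, plotted against each other with 1 point per embryo, KO in red and WT in blue. Cryaa and Cryba1 lie near a line across both genotypes, while KOAC10-8 and KOAC8-6 hold the low end.

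The spread between embryos differed between the members. Over the 7 embryos the coefficient of variation was 52.0% for Cryba1, 43.0% for Cryaa and 42.5% for Pitx3, at the 96.2, 94.4 and 94.3 percentiles of the genes tested, whose median was 10.4%. It was 10.19% for Dct and 12.2% for Tyr, at the 48.8 and 58.6 percentiles, and 22.9% for Pmel. Foxe3 and Tyrp1, with means below 1 FPKM, had 47.0% and 27.6%. These values pool KO and WT embryos, so they hold any genotype difference. Among the 4 WT embryos alone the coefficient was 24.5% for Cryba1, 24.7% for Cryaa and 16.9% for Pitx3. For Pmel, Dct and Tyr it was 26.55%, 8.93% and 16.3% there.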

How the data were processed

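RNA-seq was done on 7 whole E11.5 embryos, 3 KO and 4 WT, grouped by the labels. The deposited FPKM values, 1 per gene and embryo, come from libraries of the TruSeq RNA v2 kit, made into FPKM by the authors, and the kit does not mark strand. The submitters' processing notes name Salmon, DESeq2, MultiQC and GRCm38 without version or role. The authors also deposited a mean signal per gene, the mean of normalized counts, which sums to 66829032 over all genes, and it was used only to estimate the counts behind a gene. Their fold changes and p-values were not used. Depth per embryo was not used here, and 0 columns were left unmapped.

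The 16095 genes whose mean reached 1 FPKM were compared on log2(FPKM + 1) with limma 3.58.1 in R 4.3.3 (eBayes with a trend), with Benjamini-Hochberg adjustment at 0.05, and single genes with exact permutation tests (two-sided, 35 splits). A fold change on this scale understates that of low genes. Replicates are separate embryos. The steps were tested on simulated data. Positions are those of GENCODE M21, and promoters come from RefSeq (GRCm38.p6). The members and lists were chosen with earlier results of these data known. Named genes are the members and, in each list, up to 6 genes with an unadjusted p under 0.05 and the 2 with the highest mean FPKM, beside Slmap and genes that overlap a member. Slc24a5, Mlph and the crystallins of the set of 12 were chosen after their values were seen. Alternatives were other pseudocounts (0.1 and 0.01), other filters, scalings, covariates and leaving out each embryo.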

Additional observations from a re-analysis of the deposited data

Results flagged for a closer look

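The WT embryo KOAC10-2 stood apart from the other 3 WT embryos for Foxe3 and for Pmel. For Foxe3 it had 0.349 FPKM against 0.159 to 0.191 in the others, and the gap to the nearest of them was 0.835 of the whole WT range. For Pmel it had 5.55 FPKM against 3.31 to 3.58, and the gap was 0.878 of the range. Of the 10 members examined, these 2 passed the critical value for such a gap at 4 samples (Dixon's, 95%), where chance alone puts about 1 in 20 groups. Both values lay on the side of the KO embryos, and the number that opens the description of KOAC10-2 in the labels lies outside the range of those of the other embryos. Its Afp was 2.49 FPKM, low as in KOAC10-5 and KOAC10-7. The part of these in the values was not tested. The share of all genes with a WT gap of this size was not computed. With genotypes centred, Foxe3 and Pmel had r = 0.85 over the 7 embryos. That value includes KOAC10-2 itself, so it cannot show whether the 2 gaps are independent. The mean count of Foxe3 was 10.6, with a counting error of 30.7%.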

How the results depend on the processing

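No member passed the adjusted threshold under any alternative run. The number with an unadjusted p under 0.05 was 1 (Pitx3), and became 3 without the filter on low values (Foxe3, Pitx3 and Tyrp1), 0 at a mean of at least 5 FPKM, where Pitx3 was not tested, 2 with log2 Afp as a covariate (Pitx3 and Pmel) and 3 without the 3 embryos with low Afp (Cryba1, Pitx3 and Pmel), a setting chosen after seeing the data. Leaving out each embryo gave 1 to 3, the 3 without KOAC10-5 (Cryaa, Cryba1 and Pitx3). The members tested were 8 in the main fit, 10 without the filter and 7 without the 3 low-Afp embryos. Of all genes, 11.5% had an unadjusted p under 0.05 in the main fit (limma). That share was not computed for the alternatives, so these counts of members have no background beside them. Over all genes, 6 passed the adjusted threshold, 10 with the Afp covariate, 17 without the 3 low-Afp embryos, and 7 to 12 when each embryo was left out, the 12 without KOAC8-1. The causes were not tested.

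The log2 fold change of Pitx3 was negative in all 17 alternatives, from -1.16 to -0.74, with adjusted p from 0.165 to 0.517 in limma. Tyr turned to -0.0035 with the series as a block, which leaves out KOAC9-1 in effect, and ran from -0.0035 to 0.0878 when each embryo was left out. Mitf ran from -0.0364 without KOAC10-5 to 0.141 without KOAC8-6. Pmel stayed between 0.27 and 0.48 and Dct between 0.10 and 0.25. Exact tests without each embryo were not run, since 6 embryos allow no p under 0.05. With the series prefix as a block, 7 genes passed the adjusted threshold and Pitx3 stayed the 1 member with an unadjusted p under 0.05. Foxe3 and Tyrp1 are limited by their counts.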

Other observations

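Heart markers were higher in KO embryos for all 8 tested, with a median log2 fold change of 0.24, and 3 of them, Myh6, Myh7 and Myl7, had an unadjusted p under 0.05, against 11.5% of all genes tested, and none after adjustment (limma). Myh6, the atrial myosin heavy chain, was at 56.5 ± 7.45 FPKM (SD, n = 3) in KO embryos, against 43.2 ± 8.99 FPKM (SD, n = 4) in WT embryos, and the groups of all 8 overlapped. Myl2 and Tnnt2, the most abundant of them, had log2 fold changes of 0.10 and 0.20. Of the 6 fetal liver markers, 5 had a log2 fold change above 0, and none of these passed before adjustment. Their mean FPKM did not all go that way. The ratio of KO to WT means was 0.578 for Alb, 0.770 for Apoa1 and 0.705 for Serpina1a, against 1.15 for Afp and 1.05 for Fgb. Ttr, a carrier of thyroid hormone, had a log2 fold change of -1.40 (SE 0.17, adjusted p = 0.0891, limma). It was the only 1 of the 6 under an unadjusted p of 0.05, against 11.5% of all genes tested. Its KO values lay below all WT values, as they did in 5.43% of all genes in the table. It did not follow Afp across the embryos. Ttr was at 14.4, 15.3 and 15.1 FPKM in KO embryos, against 46.4, 32.3, 53.1 and 35.3 FPKM in WT embryos. Of these, the WT embryos KOAC10-7 (32.3) and KOAC10-2 (35.3) were low in Afp. The part of the liver in the Ttr difference was not tested. Afp and Alb had 1.38 (SE 2.34) and 0.56, and the summed FPKM of the 6 ran from 23.4 to 676 over the embryos.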
